A study of Homo sapiens with 2 samples.

Results

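The tubulin genes encode the subunits of microtubules, and 10 of them were followed here on a pair of DNA microarrays of periostin-silenced and control lung fibroblasts: the α-tubulins TUBA1A, TUBA1B and TUBA1C, the β-tubulins TUBB, TUBB2A, TUBB2B, TUBB3, TUBB4B and TUBB6, and the γ-tubulin TUBG1. They were chosen by name, and every probe whose RefSeq accession belonged to one of them was taken. Of these 10 genes, among 21743 genes named on the array, 9 had at least 1 probe, and the 9 genes had 14 probes in all. TUBB6 had no probe named in this way and was not analysed here. MRC-5 cells, a fibroblast line derived from human fetal lung, received either control siRNA or periostin siRNA, and the periostin siRNA was given at 10 nM for 48 h, whereas the labels state no dose for the control siRNA. RNA of 1 culture per condition was hybridized to 1 single-colour Agilent array per condition, and both arrays lay on 1 slide. With 1 culture on each side there is no p-value, and every difference compares these 2 arrays, and differences between cultures cannot be told apart from an effect of the siRNA.

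Microtubules are hollow polymers of α- and β-tubulin heterodimers. They grow and shrink at their ends, serve as tracks for transport in resting cells, and form the spindle that separates chromosomes in dividing cells. Human cells carry several α- and β-tubulin genes, whose proteins are nearly identical over most of their length and differ mainly in the acidic tail, and which mix in the same polymer. TUBA1A, TUBB2B and TUBB3 are best known from neurons, in which mutations of them disturb brain development, whereas TUBA1B, TUBA1C, TUBB and TUBB4B are broadly expressed and TUBB6 is found in many non-neuronal tissues. γ-tubulin is not part of the polymer wall but nucleates microtubules from a ring complex at the centrosome. Cells also adjust α- and β-tubulin mRNA by degrading it during translation when free tubulin is abundant, so that an mRNA level need not follow transcription alone.

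The upstream sequences of 4 tubulin genes are shown: TUBB2B, TUBA1C and TUBB4B, whose ratios were the lowest by their brightest probes, and TUBB2A, the paralog and neighbour of TUBB2B on chromosome 6, whose ratio differed from that of TUBB2B. Each run is the 250 bases before an annotated transcription start, taken from RefSeq on GRCh38.p14, and is written 5′ to 3′ on the gene's own strand. Capitals mark matches, on either strand, to the CCAAT box (CCAAT), the cell cycle genes homology region or CHR (TTTGAA), the TATA box (TATAAA) and the GC box (GGGCGG), and no matches overlapped in these 4 windows.
TUBB2B, chr6:3227654-3227903, minus strand: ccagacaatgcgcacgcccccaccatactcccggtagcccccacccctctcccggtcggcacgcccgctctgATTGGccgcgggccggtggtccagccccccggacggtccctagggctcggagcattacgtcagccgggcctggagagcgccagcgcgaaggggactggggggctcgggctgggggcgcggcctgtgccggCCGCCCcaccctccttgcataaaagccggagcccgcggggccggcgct
TUBB2A, chr6:3157545-3157794, minus strand: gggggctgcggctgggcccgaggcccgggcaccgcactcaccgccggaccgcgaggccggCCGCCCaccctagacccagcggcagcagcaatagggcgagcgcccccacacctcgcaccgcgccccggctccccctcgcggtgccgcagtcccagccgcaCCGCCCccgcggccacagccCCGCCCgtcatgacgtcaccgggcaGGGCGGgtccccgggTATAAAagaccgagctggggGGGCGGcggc
TUBA1C, chr12:49264832-49265081, plus strand: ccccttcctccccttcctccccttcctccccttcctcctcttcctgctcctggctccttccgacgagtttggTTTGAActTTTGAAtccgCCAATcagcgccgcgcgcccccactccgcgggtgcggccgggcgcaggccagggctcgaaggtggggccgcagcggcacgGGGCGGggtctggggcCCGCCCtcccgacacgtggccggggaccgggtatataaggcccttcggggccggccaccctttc
TUBB4B, chr9:137241037-137241286, plus strand: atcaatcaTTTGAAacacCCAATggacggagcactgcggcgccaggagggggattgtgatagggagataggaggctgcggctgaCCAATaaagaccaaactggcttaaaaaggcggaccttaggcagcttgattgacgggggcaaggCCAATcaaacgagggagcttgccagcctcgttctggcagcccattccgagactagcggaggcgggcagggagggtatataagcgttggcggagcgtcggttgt

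The TUBB2A window held 1 TATA box, 30 bases before the start, and 5 GC boxes, while the TUBB2B window held 1 CCAAT box and 1 GC box. The TUBB4B window held 3 CCAAT boxes and 1 CHR match, and the TUBA1C window shown held 1 CCAAT box, 2 CHR matches and 2 GC boxes. TUBA1C has 3 annotated windows, which are not paired with transcripts here, and the window shown has the most matches. The window from 49227676 held 1 CCAAT box and 1 CHR match, and that from 49227769 held 1 CCAAT box alone. Over all 15 windows of the 10 genes, the CCAAT box was present in 10, the GC box in 9, the CHR in 3 and the TATA box in 1, which is 8, 8, 2 and 1 of the 10 genes. Overlapping windows share sites, and 1 CCAAT site of TUBA1C is counted in 2 of its windows. Among all 35116 annotated windows of the same length, 32.0% held a CCAAT box, 42.6% a GC box, 13.3% a CHR match and 10.7% a TATA box. The 3 windows with a CHR match belonged to TUBA1C and TUBB4B. Only the exact letters were searched, so the run tatataag in the TUBA1C and TUBB4B windows shown was not counted as a TATA box. The counts therefore do not show that a window lacks a TATA box. These are matches of letters in short windows and not measured binding sites.

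All 14 tubulin probes were well above background on both arrays and none was saturated. Signals are given scaled to a common 75th percentile, and each log2 ratio is that of the periostin-silenced to the control cells. Each tubulin probe was printed once, so its error is the one that Feature Extraction propagates for a spot, which was between 0.20 and 0.21 on the log2 scale for the ratio of every tubulin probe. This error was nearly the same at every signal here, so it is not a spread measured on these spots. Differences called larger than it are judged against this near-constant value. For comparison, probes printed 10 times had a pooled SD between spots of 0.05 among the brightest 133 and 0.24 among the dimmest 134. Neither error covers the difference between cultures. POSTN, the target of the siRNA, had a signal of 2638 in control and 280 in silenced cells, which is a log2 ratio of -3.24 ± 0.20 (propagated error, 1 spot).

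By their brightest probes, all 9 measured tubulin genes had a lower signal on the periostin siRNA array. Their median log2 ratio was -0.68, which is 0.62 of the control signal, whereas the median over the 16052 genes with a ratio was 0.06. A ratio below 0 was found for 45.5% of all genes. Among the 9 tubulin genes, TUBB at -0.20 and TUBB2A at -0.14 did not exceed their propagated error of 0.20. The other TUBB probes were higher on the periostin siRNA array. The ratios of the tubulin genes spanned 3.21 log2 units, from -3.35 for TUBB2B to -0.14 for TUBB2A. By more than 3-fold, 1 of the 9 genes was lower, against 2.75% of all genes, and none was higher, against 3.37% of all genes. By more than 2-fold, 3 of the 9 genes were lower, against 6.42% of all genes, and none was higher, against 7.97% of all genes. In order from the lowest ratio, the genes were TUBB2B, TUBA1C, TUBB4B, TUBA1B, TUBB3, TUBA1A, TUBG1, TUBB and TUBB2A. Of the 8 steps between neighbours in this order, only that from TUBB2B to TUBA1C, by 1.90, and that from TUBB4B to TUBA1B, by 0.33, exceeded the combined propagated error of 0.29. TUBB2A and TUBB changed places under quantile normalization and with the mean over probes. With the mean over probes, TUBB4B at -1.28 also came before TUBA1C at -1.23, and TUBB2A at -0.313 before TUBG1 at -0.310.

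**Figure D1:**
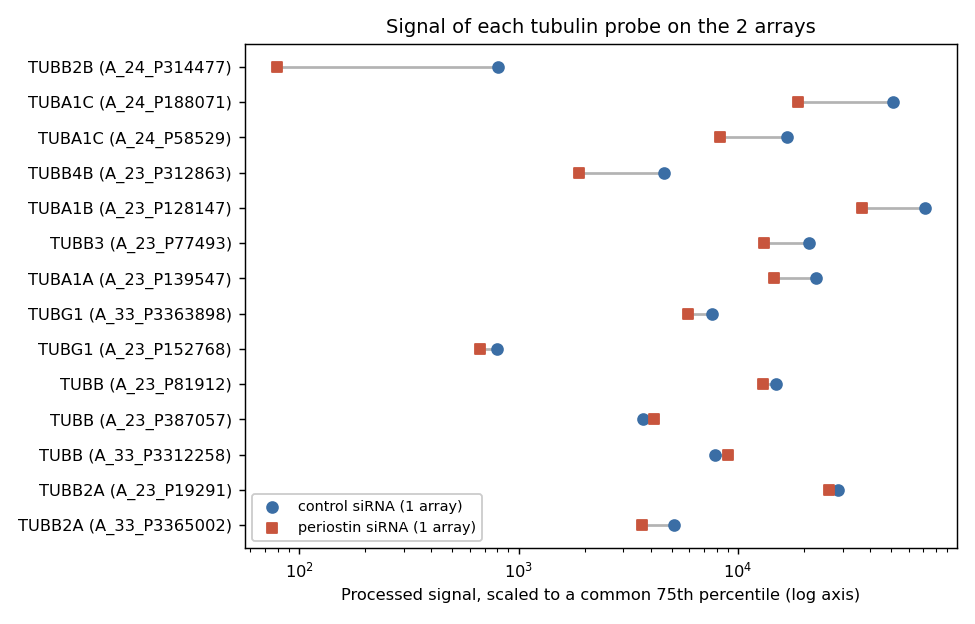
Processed signal of each of the 14 tubulin probes (rows, gene and probe name) on the control siRNA array (circles) and the periostin siRNA array (squares), scaled to a common 75th percentile on a log axis, with 1 array per condition. The square lies to the left of the circle for every probe except 2 of the 3 TUBB probes, and the gap is widest for TUBB2B, from 807 to 79.3.

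TUBB2B, a class II β-tubulin typical of neurons and of developing brain, had a scaled signal of 807 with control siRNA and 79.3 with periostin siRNA. Its log2 ratio was -3.35 ± 0.21 (propagated error, 1 spot), a 10.2-fold lower signal, and 0.392% of all genes had a lower ratio. This was the only probe of its gene. The local background around this spot was flagged as an outlier on both arrays, although the spot itself was not. TUBB2A, the other class II β-tubulin and its neighbour on chromosome 6, had a signal of 28568 in control and 25907 in silenced cells, a log2 ratio of -0.14 ± 0.20 (propagated error). The other TUBB2A probe gave 5120 and 3656, a ratio of -0.49. Both TUBB2A ratios differed from that of TUBB2B by more than the combined propagated error. The probe sequences were not used here, so how well the probes separate these near-identical paralogs was not tested.

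The α-tubulins were lower in all 3 genes, with a median log2 ratio of -0.95. TUBA1C, an α-tubulin of many dividing cell types, had by its brightest probe a signal of 50930 in control and 18731 in silenced cells, a ratio of -1.44 ± 0.20 (propagated error) or 2.72-fold. Its other probe gave 16658 and 8284, a ratio of -1.01, so that both probes were lower by more than 2-fold but differed from each other by more than the combined error. TUBA1B, the ubiquitous α-tubulin, had 71153 in control and 36705 in silenced cells, a ratio of -0.95 ± 0.20. TUBA1A, the main α-tubulin of neurons, had 22561 and 14559, a ratio of -0.63 ± 0.20. These 3 genes lie together on chromosome 12, and their coding sequences are much alike. The probe sequences were not used, so binding of RNA of 1 gene to the probe of another was not tested. It cannot be told apart from that probe's own target here.

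The β-tubulins were less uniform. Beside TUBB2B, only TUBB4B, a class IV β-tubulin of cilia and of many dividing cells, was lower by more than 2-fold, with 4591 in control and 1890 in silenced cells. Its ratio was -1.28 ± 0.20 (propagated error, 1 spot). TUBB3, the class III β-tubulin used as a marker of neurons, had 21126 and 13157, a ratio of -0.68 ± 0.20. TUBB, the class I β-tubulin of most cells, was measured by 3 probes that did not share a direction. Its brightest probe had 14901 in control and 13000 in silenced cells, a ratio of -0.20 ± 0.20, while the other probes gave 3698 and 4146, a ratio of 0.17, and 7892 and 8973, a ratio of 0.19. The mean over the 3 TUBB probes was 0.05, so that no direction can be given for TUBB.

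TUBG1, the main γ-tubulin of dividing cells, had by its brightest probe 7573 in control and 5917 in silenced cells, a log2 ratio of -0.36 ± 0.20 (propagated error). The local background of this spot was flagged as an outlier on both arrays. Its other probe, without a flag, had 799 and 665, a ratio of -0.26.

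**Figure D2:**
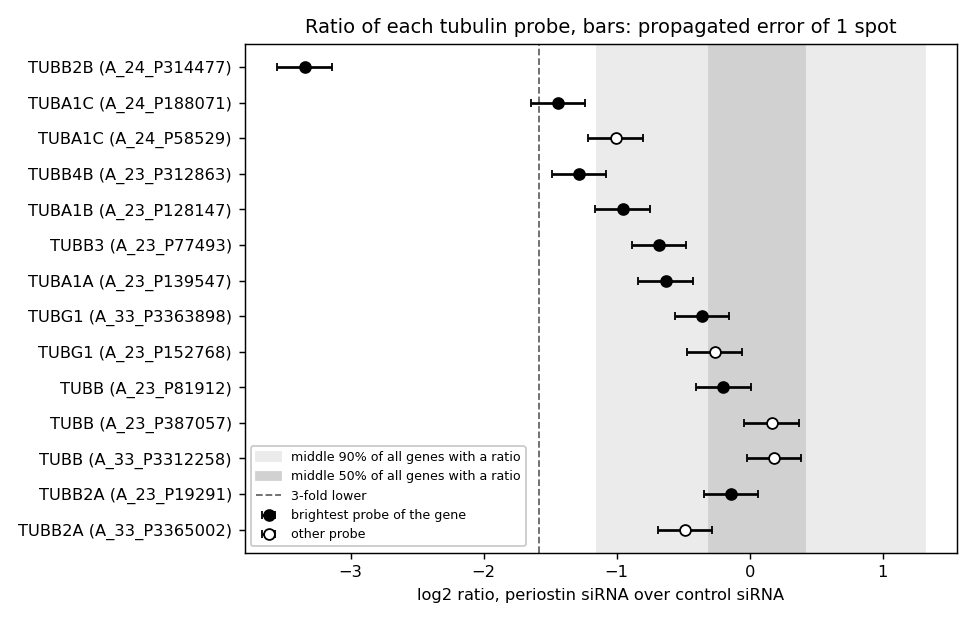
Log2 ratio, silenced over control cells, for each of the 14 tubulin probes, with filled points for the brightest probe of a gene, open points for its other probes and bars for the propagated error of 1 spot. The grey bands hold the middle 50% and the middle 90% of the 16052 genes with a ratio, and TUBB2B, TUBA1C by its brightest probe and TUBB4B lie below the wider band, whose lower edge is -1.15.

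The further tubulin genes, most of them restricted to testis, brain, platelets or oocytes in the body, were followed as a list of their own. Of 12 such genes 9 had a ratio, with a median log2 ratio of -0.15. None of the 9 was past 2-fold in either direction, against 6.42% of all genes lower and 7.97% higher. This median was -0.28 with the median as the scale and -0.011 with no filter on background. The lowest were TUBB8, a β-tubulin of oocytes, from 2092 to 1218 with a ratio of -0.78, and TUBE1, the ε-tubulin of centrioles, from 355 to 221 with a ratio of -0.68. TUBB8 also had a dim probe that was well above background only with periostin siRNA, at 42.0 against 9.10, a bound in the opposite direction. Its remaining probe was below background on both arrays, at 1.65 in control and 1.62 in silenced cells. Whether the bright TUBB8 probe also binds RNA of other tubulin genes was not tested. Of those well above background on both arrays, the highest were TUBG2, the γ-tubulin paralog of TUBG1, from 603 to 700 with a ratio of 0.22, and TUBA3D from 286 to 328 with a ratio of 0.20. TUBB1, the β-tubulin of platelets, and TUBAL3 were below background on both arrays.

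Newly made tubulin is folded by prefoldin, by the cytosolic chaperonin CCT and then by the tubulin cofactors, and 22 of 23 genes of this route and of tubulin mRNA regulation had a ratio. Their median log2 ratio was -0.35, 17 of the 22 ratios were below 0, against 45.5% of all genes, and 3 genes were lower by more than 2-fold and none higher, against 6.42% and 7.97% of all genes. All 8 CCT subunits had a ratio below 0, with a median of -0.50. Of these, CCT5 rests on a dim probe with 70.4 in control and 54.5 in silenced cells, a ratio of -0.37. CCT8 had 9161 in control and 3931 in silenced cells, a ratio of -1.22, and CCT2, named after its value was seen, had 18589 and 9010, a ratio of -1.04 ± 0.07 (SD over 10 spots). TBCEL, a protein related to cofactor E that destabilises tubulin, had 303 and 111, a ratio of -1.45. At the other end of this list were ARL2, a small GTPase that acts with the cofactors, at 0.53, and the cofactor TBCD at 0.21, and the 7 cofactor genes together had a median of 0.09. TTC5, which starts the degradation of tubulin mRNA during translation and was named after its value was seen, had 2623 and 1768, a ratio of -0.57.

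The genes that nucleate microtubules with γ-tubulin did not share a direction. Of 21 genes of the γ-tubulin ring complex, its recruiters and augmin, which seeds branches in the spindle, 18 had a ratio. Of the 18 ratios 9 were below 0, against 45.5% of all genes. The median of 0.01 changed its sign when the arrays were scaled on the median or fitted by loess, or when the probes of a gene were averaged. MZT1, a small subunit of the ring complex, was the only one past 2-fold, with 1104 in control and 410 in silenced cells, a ratio of -1.43. Of all genes, 6.42% were lower and 7.97% higher by more than 2-fold. HAUS8, the augmin subunit that binds microtubules, was at -0.66. TUBGCP6, a subunit of the ring complex, was at 0.80, and CDK5RAP2, which anchors the complex, at 0.45.

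Of 26 genes for enzymes that add or remove marks on tubulin, or for proteins related to them or binding them, 20 had a ratio. Their median log2 ratio was 0.19, or 0.063 with the median as the scale. Of the 20 ratios 8 were below 0, against 45.5% of all genes. AGBL2, a carboxypeptidase that shortens glutamate chains, was the only one past 3-fold, from a dim signal of 23.6 to 91.9, a ratio of 1.96. Of all genes, 3.37% were higher and 2.75% lower by more than 3-fold. The acetyltransferase ATAT1 was at 0.68, and the deacetylases HDAC6 and SIRT2, named after their values were seen, were at 0.66 and 0.63. AGTPBP1, a deglutamylase needed by neurons, was at -0.89, and TTLL9, a glutamylase with a signal close to background, at -0.59. Of 35 genes for proteins that bind or sever microtubules, 33 had a ratio, with a median of 0.01, a sign that changed under scaling on the median, loess and the normexp correction. MAP6, which stabilises microtubules against cold, was the only one of the 33 past 3-fold, against the same shares of all genes. Its signal went from 24.0 to 90.4, a ratio of 1.91. MTUS1, which binds microtubules, went from 41.5 to 86.8, a ratio of 1.06. The severing enzyme FIGN was at -0.88 and MAP7, which recruits kinesin, at -0.74, with control signals of 31.4 and 32.6.

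**Figure D3:**
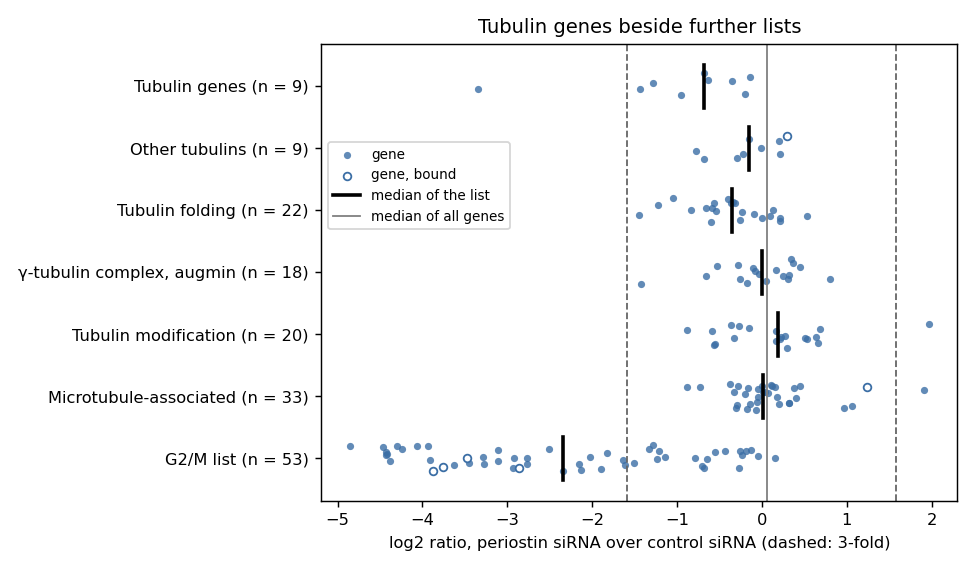
Log2 ratio, silenced over control cells, for each gene with a ratio in the tubulin genes and 6 further lists (points, open where only a bound could be given), with the median of each list (black bar), the median of all genes (grey line) and the 3-fold limits (dashed). The tubulin genes have a median of -0.68, between that of the tubulin folding genes at -0.35 and that of the G2/M list at -2.34.

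Spindle microtubules are built in mitosis, and the G2/M gene list of the Seurat package, which includes TUBB4B and no other tubulin, was set beside the tubulin genes. Of its 54 genes 53 had a ratio, with a median log2 ratio of -2.34, and 34 were lower by more than 3-fold, against 2.75% of all genes. Under the normexp correction, whose offset of 50 shrinks the ratios of dim signals, this median was -1.49. The part of cell cycle position in the tubulin ratios was not tested, since both differ between the same 2 cultures. Of the genes of other cell types, all 10 fibroblast markers were well above background on both arrays, with summed signals of 369333 with control siRNA and 326288 with periostin siRNA. Of 10 neuronal markers 7 were below background on both arrays, and the summed signal of the list was 1166 and 1144, and only RBFOX3, SNAP25 and SYT1 were above it. SYT1, a synaptic vesicle protein in that list, had 163 and 28.6, a ratio of -2.51. It was the only one of these markers lower by more than 3-fold, against 2.75% of all genes. Among 7 epithelial markers EPCAM was higher by more than 3-fold, from 34.6 to 135, a ratio of 1.97, against 3.37% of all genes. CDH1 and NKX2-1 did not exceed background on either array, and the summed signal of the epithelial list was 4038 and 6079. The sums were 5591 and 5305 for 5 endothelial markers, nearly all of it from TEK with 5457 and 5175, and 1560 and 2498 for 6 immune markers, nearly all of it from CD68 with 1528 and 2451. Of the immune markers, HLA-DRA, LAPTM5 and MS4A1 did not exceed background on either array, and sums over probes of unlike brightness are descriptions. The part of these lists in the tubulin ratios was not tested. Fewer dividing cells and less RNA per cell cannot be told apart in such bulk RNA.

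**Figure D4:**
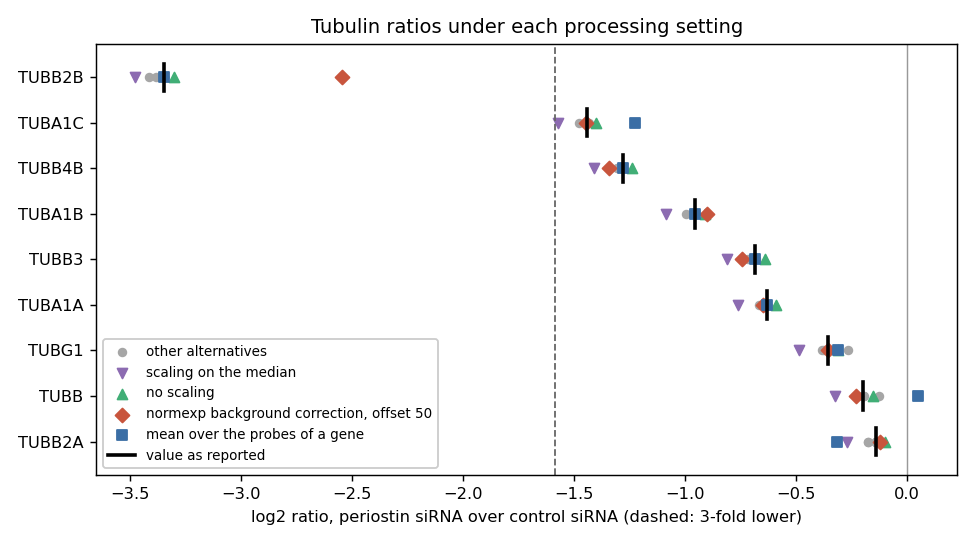
Log2 ratio, silenced over control cells, of each measured tubulin gene under each processing setting, with a black bar for the value as reported and symbols for the alternatives (dashed line: 3-fold lower). TUBB2B stays past 3-fold in every setting that measures it, with the normexp correction closest at -2.55. Rules for probes, replicate spots and background filters could not move the ratio of TUBB2B, which rests on 1 spot. TUBB alone crosses 0, at 0.05, when its 3 probes are averaged.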

How the data were processed

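RNA of MRC-5 cells transfected with control siRNA or periostin siRNA was measured on 1 single-colour Agilent array each. The authors deposited the scanner files, with intensity values that Feature Extraction (11.5.1.1 per the file headers, 12.0.3.1 per the submitters' processing notes) had background-subtracted and detrended without scaling between arrays, and a table of normalized intensity values, scaled by an unstated method. The array design was annotated on hg19, and genes were named through RefSeq accessions (GRCh38.p14), which matched 65.1% of the 58717 non-control spots.

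The log2 processed signal minus its array's 75th percentile (372 for control siRNA, 383 for periostin siRNA) was used, with Python 3.11.15, numpy 2.4.6, pandas 2.3.3, R 4.3.3 and limma 3.58.1. Signals are printed scaled to 377. Replicate spots were averaged, and the brightest probe stood for a gene. Where it was well above background (58.0% and 58.9% of the spots) on 1 array alone, the ratio is a bound, taken against the dim signal or, if higher, the lowest one above background there (7.43 for control siRNA and 7.89 for periostin siRNA before scaling). The precision is limited by the number of arrays, and no test was run. The steps were tested on simulated data in which only bright genes were changed and no spot was above background on 1 array alone. The rule for bounds and the ratios of dim genes were therefore not tested.

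All 10 tubulin genes are named with every probe. Of the other tubulin, folding, γ-tubulin complex, modification and microtubule-associated lists, the genes past 3-fold and the 2 highest and 2 lowest well above background on both arrays are named, with the markers past 3-fold, while the other markers above background, which the rule also covers, are mostly given as counts and sums, and the G2/M list by its counts and median. CCT2, CCT5, TTC5, HDAC6, SIRT2 and the markers below background were named after their values were seen. The members and lists were chosen with earlier results of these data known. The alternatives were another background correction (normexp with an offset of 50), other scalings, the authors' table, other rules for probes and spots, and thresholds of 2-fold and 4-fold.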

Additional observations from a re-analysis of the deposited data

How the results depend on the processing

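No paired analysis was possible because neither group has a second array to pair, and leaving out a replicate was likewise not possible. The median log2 ratio of the tubulin genes was below 0 in all 12 alternatives, between -0.81 and -0.64, with scaling on the median moving it most, to -0.81. That scaling shifted the median of all genes by -0.13. The background filters and the rule for replicate spots could not move the tubulin median, because each tubulin probe was 1 spot above background on both arrays. With the mean over probes the tubulin median stayed at -0.68, the ratio of TUBB3, which has 1 probe. The ratio of POSTN moved most under the normexp background correction, to -2.99. That correction added an offset of 50 to each signal, which shrinks the ratios of dim signals. Its shifts are therefore not those of background correction alone. TUBB2B was lower by more than 3-fold in each of the 11 alternatives that measured it. With 1 spot above background on both arrays, the rules for probes, replicate spots and background filters could not change its ratio. The authors' table also gave -3.35. Without spots that carry an outlier flag it had no spot, and 0 tubulin genes were lower by more than 3-fold. At a threshold of 2-fold 3 were lower, and none was higher at any threshold or setting. TUBB changed its sign to 0.051 with the mean over its probes. The median of the γ-tubulin complex list turned to -0.12 with the median as the scale, -0.020 after loess and -0.075 with the mean over probes, and that of the microtubule-associated list to -0.015 under normexp, -0.12 with the median as the scale and -0.029 after loess. The median of the G2/M list moved to -1.49 under normexp, -2.47 with the median as the scale and -2.14 with only probes above background on both arrays, that of the other tubulins to -0.28 with the median as the scale and -0.011 with no filter, and those of the folding and modification lists to -0.48 and 0.063 with the median as the scale. Of all genes, 441 were lower and 541 higher by more than 3-fold, against 190 and 143 under normexp and 686 and 878 with no filter. The authors' table also gave 441 and 541, so it adds little as an alternative to the scaling used here. Dim signals on at least 1 array limit the ratios of AGBL2, MAP6, MTUS1, FIGN, MAP7, TTLL9, EPCAM and SYT1.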
